A study of Mus musculus with 9 samples.

Results

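The genes described here encode subunits of respiratory complexes II to V that are written in the nuclear genome. They were chosen by symbol in the array's gene table, as every gene whose symbol is Sdha, Sdhb, Sdhc or Sdhd, or begins with Uqcr, with Cox4 to Cox8 or with Atp5, and which has a probe set assigned to it alone. The rule found 47 of the 22180 genes measured. Of these 45 are protein-coding (4 of complex II, 7 of complex III, 17 of complex IV and 17 of complex V), and 2 are pseudogenes, Uqcrh-ps1 and Atp5c1-ps, whose levels did not exceed 2.25 in any array and which are left out of the counts below. Values are log2 expression values, on which a step of 1 is a doubling of the array signal, and the median over all probe sets and arrays was 3.39.

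RNA came from 9 skeletal muscles of male C57BL/6J mice, an inbred strain, aged 12 weeks, with 1 whole-transcript array per muscle. The labels name no treatment or altered allele for any sample and do not say how many animals gave RNA to an array. By anatomical position the arrays form a head group (masseter and digastric, n = 2), a shoulder and forelimb group (trapezius, supraspinatus and triceps, n = 3) and a hindlimb group of 4 (soleus, gastrocnemius, tibialis anterior and rectus femoris). Each group is made of different muscles, so its SD is a spread between muscles, and the differences between animals, muscles and arrays cannot be told apart in it.

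Complex II, succinate dehydrogenase, passes electrons from the citrate cycle to ubiquinone. Complex III hands them on to cytochrome c, complex IV gives them to oxygen, and complex V, the ATP synthase, uses the proton gradient that complexes III and IV help to build. Oxidative muscle fibres are rich in mitochondria and glycolytic fibres poor in them. Several small subunits of complex IV come as a heart and skeletal muscle isoform and a widely expressed, liver-type one, as in Cox6a2 and Cox6a1, Cox7a1 and Cox7a2, and Cox8b and Cox8a.

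The muscle label was borne out by the markers: the mean of 10 skeletal muscle genes lay between 11.42 (soleus) and 12.10 (trapezius). Slow fibre genes (7 measured) had a mean of 10.55 in soleus, 7.24 in trapezius, 6.84 in gastrocnemius, 6.41 in triceps and 5.19 in rectus femoris. They were lower in supraspinatus (5.05), tibialis anterior (4.83), digastric (4.64) and masseter (4.32). The arrays differed in their spread of values, with an SD over probe sets of 1.92 to 1.96 in triceps, rectus femoris and gastrocnemius and of 2.03 to 2.08 in the other 6. The former 3 are called narrow-range arrays below and the latter 6 wide-range arrays. Each region has 2 wide-range arrays, and differences among those 6 are given beside the hindlimb and head results.

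The subunit genes varied together from muscle to muscle. As a median over the 45 genes of each gene's deviation from its own mean over the 9 arrays, the level was 0.46 in digastric, 0.24 in masseter, 0.23 in soleus, 0.12 in supraspinatus, 0.07 in trapezius and 0.05 in tibialis anterior. In the narrow-range arrays it was -0.19 in triceps, -0.45 in gastrocnemius and -0.56 in rectus femoris. Digastric had the highest value of 32 of the 45 genes. The lowest value lay in rectus femoris for 24 genes and in gastrocnemius for 16. The median over all genes measured stayed between -0.03 and 0.02 in every array.

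All 4 complexes were highest in digastric and lowest in rectus femoris or gastrocnemius. The order was not the same in each: in complex IV soleus (0.28) lay above masseter (0.23), and complex V was lowest in gastrocnemius (-0.58). In digastric the medians were 0.47 for complex II, 0.58 for complex III, 0.31 for complex IV and 0.52 for complex V. In rectus femoris they were -0.62, -0.58, -0.51 and -0.54 in the same order. Complex IV had the lowest of the 4 medians in digastric. Its genes include Cox4i2, Cox6b2, Cox7b2, Cox7c and Cox8c, whose probe sets had mean signals from 1.16 to 4.21. Their part in that median was not tested. In trapezius the median was 0.19 for complex II and -0.02 for complex IV.

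**Figure D1:**
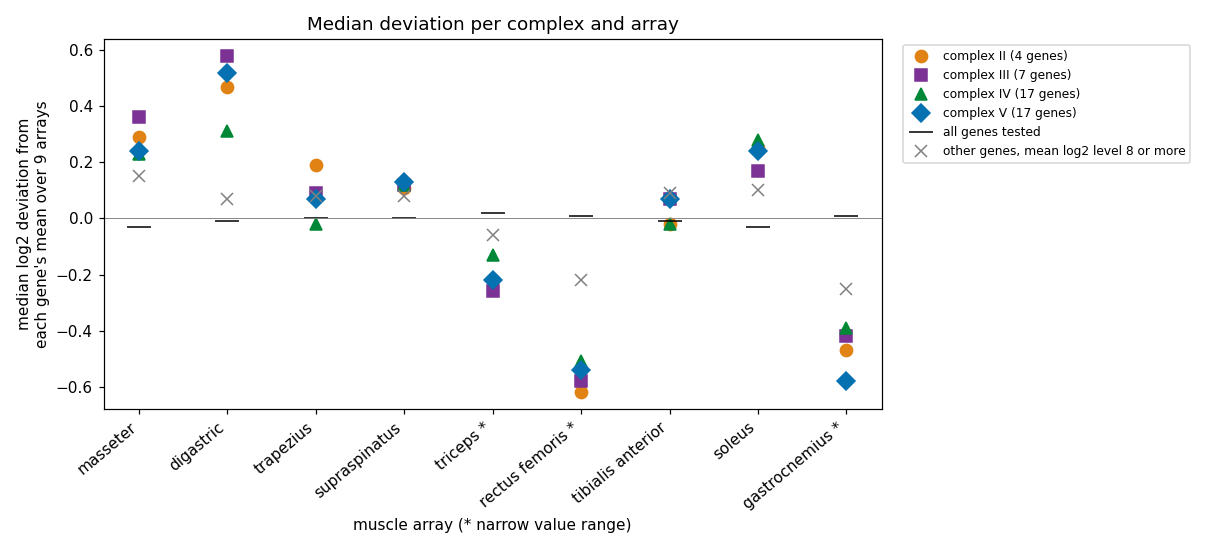
Median log2 deviation from each gene's own mean over the 9 arrays (vertical axis), for each muscle array (horizontal axis), with 1 symbol per complex, a dash for all genes tested and a cross for other genes of high level. The symbols of the 4 complexes lie together in most arrays, highest in digastric (0.31 to 0.58) and lowest in rectus femoris (-0.62 to -0.51) and gastrocnemius (-0.58 to -0.39).

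Part of this order went with the value range of the arrays. For 30 of the 45 genes (66.7%) all 3 narrow-range arrays lay below all 6 wide-range arrays, against 11.8% of all genes. Among the 680 other genes with a mean log2 level of 8 or more the share was 37.9%, and their median deviation was -0.22 in rectus femoris and -0.25 in gastrocnemius. After quantile normalization, which gives all arrays the same distribution of values, the median over the 45 genes was 0.47 in digastric, -0.42 in rectus femoris and -0.33 in gastrocnemius. After cyclic loess normalization it was 0.39, -0.33 and -0.23 in these arrays. Whether the low values of these 3 muscles come from the muscle or from the array cannot be told apart with 1 array each. In bulk RNA, fewer oxidative fibres and less of these transcripts per fibre cannot be told apart either. The slow fibre genes were lowest in the head arrays, where the subunit genes were highest, while both were high in soleus. All 7 slow fibre genes were positive in hindlimb against head muscles (median 2.43, and 3.32 among the wide-range arrays). In limma 0 passed as higher or lower (0.00902% and 0% of all genes did). At an unadjusted p under 0.05, 1 was higher (5.45% of all genes). For 5 of the 7, every hindlimb array lay above both head arrays (11.4% of all genes). Of the 10 skeletal muscle genes 4 were negative in this comparison, among them Myh1 (-1.22) and Mb (-0.98), and 6 were positive. The part of fibre type in the results was not tested.

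Members correlated with one another over the arrays. The median correlation of a gene with the mean of all the others was 0.94 over 9 arrays and 0.75 over the 6 wide-range arrays, as a description of arrays that share their normalization. A correlation of 0.9 or more was seen for 29 genes. The 6 genes below 0.5 were all of complex IV: Cox4i2, Cox6b2, Cox7b2, Cox8c, Cox7c and Cox6a1. The first 5 of these had mean levels from 1.16 to 4.21, near or below the array median. Cox6a1, with a mean level of 9.16, is described with its partner below.

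**Figure D2:**
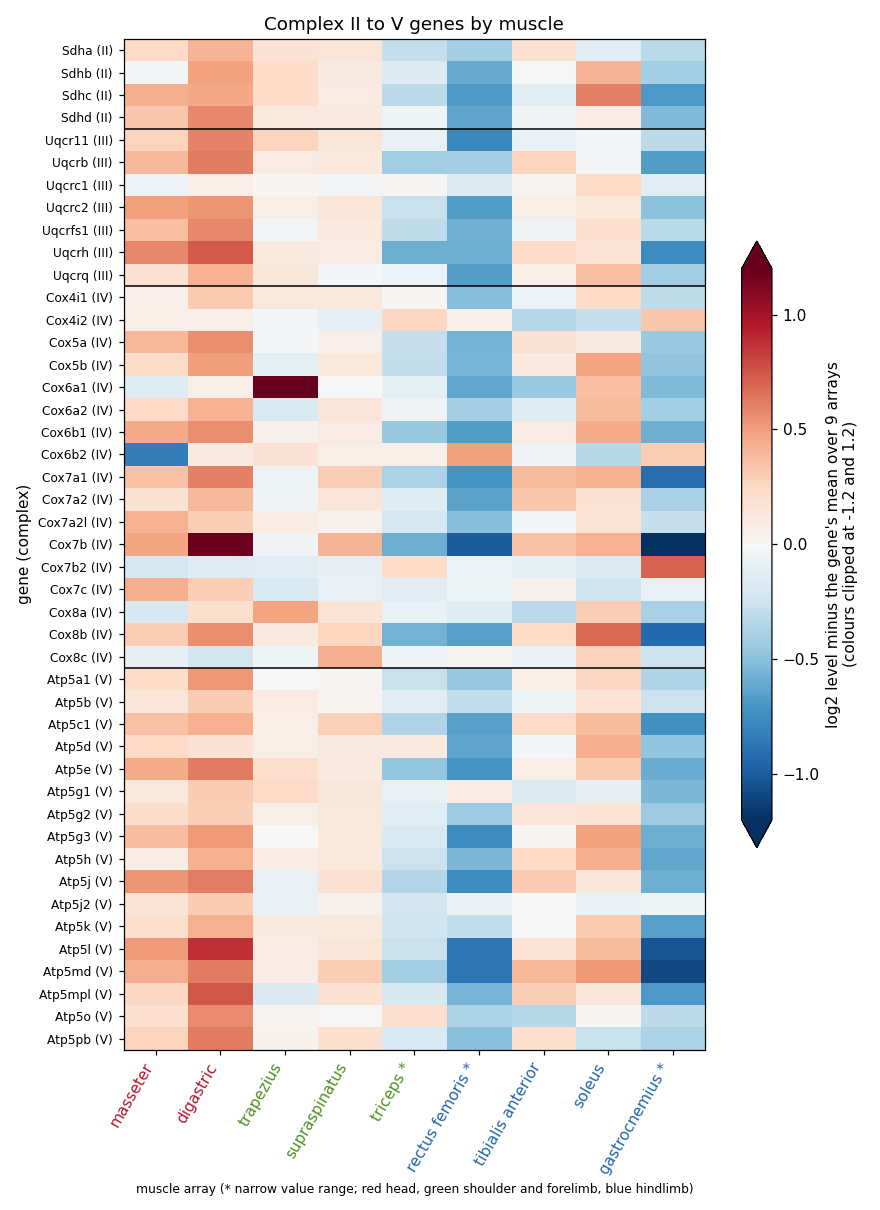
Log2 level of each of the 45 protein-coding genes (rows, by complex) minus its mean over the 9 arrays, per muscle array (columns), with red above and blue below the mean. Most rows are red in digastric and blue in rectus femoris and gastrocnemius; Cox6a1 in trapezius (10.57, against a mean of 9.16) stands out from its neighbours.

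Hindlimb and head muscles were compared first, in a limma fit over all genes with Benjamini-Hochberg adjustment. No gene of complexes II to V passed in either direction, with 0 of 45 called higher (0.00902% of all genes were) and 0 called lower (0% of all genes were). At an unadjusted p under 0.05, 0 genes were higher and 19 lower in hindlimb muscles, where the shares over all genes were 5.45% and 6.49%. Among the 680 other genes with a mean log2 level of 8 or more, 43 were higher and 68 lower at that p. Differences were negative for 42 of 45 genes, with a median of -0.50, or 1.41-fold higher in head muscles, beside a median of 0.04 over all genes and of -0.19 over the other genes of level 8 or more. Every hindlimb array lay below both head arrays for 20 of 45 genes (9.78% of all genes did), and for 102 of the 680 other genes of level 8 or more. Among the 6 wide-range arrays 39 of 45 differences were negative, with a median of -0.21. The lowest adjusted p of any of the genes was 0.364 (limma), for Atp5o.

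Complex III showed the largest median, -0.71, with all 7 genes negative, and complex IV the smallest, -0.45, with 14 of 17 negative. The positive genes of complex IV were Cox6b2, Cox7b2 and Cox8c, with mean levels of 3.70, 1.16 and 1.80, near or below the array median. The medians were -0.58 for complex II (4 of 4 negative) and -0.58 for complex V (17 of 17 negative). Among the wide-range arrays they were -0.26, -0.39, -0.08 and -0.22 for complexes II to V.

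**Figure D3:**
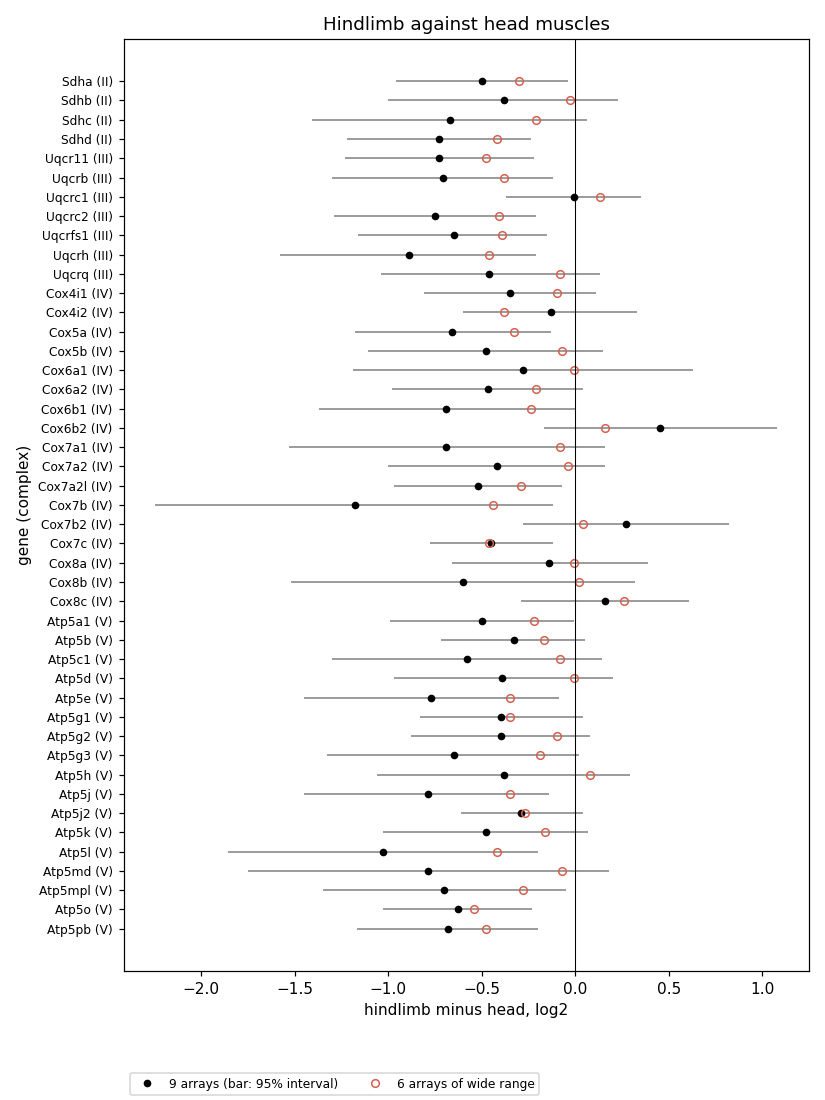
Log2 difference between hindlimb (n = 4) and head muscles (n = 2) for each of the 45 genes, as the limma estimate over 9 arrays (black points, bars for the 95% interval) and among the 6 wide-range arrays (open red points). The black points are negative for 42 genes, and the open points lie closer to 0 for most of them, with a median of -0.21 against -0.50.

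In complex II, Sdha carries the flavin and the site of succinate oxidation, Sdhb the iron-sulphur clusters, and Sdhc and Sdhd anchor the enzyme in the inner membrane. Sdhd, which had the largest test statistic, was at 9.08 in masseter and 9.33 in digastric, at 8.88, 8.87 and 8.70 in trapezius, supraspinatus and triceps, and at 8.12, 8.72, 8.85 and 8.22 in rectus femoris, tibialis anterior, soleus and gastrocnemius. All hindlimb values lay below both head values, and the difference of -0.73 (SE 0.22), which was -0.42 among the wide-range arrays, did not pass (limma, adjusted p = 0.381). Sdhc, with the widest range of the 4, was at 9.29 and 9.32 in the head arrays, at 9.08, 8.96 and 8.54 in shoulder and forelimb and at 8.18, 8.72, 9.46 and 8.17 in hindlimb arrays, in the same order of muscles. Its highest value was in soleus, so that the groups overlapped (difference -0.67, SE 0.33, adjusted p = 0.444, and -0.21 among the wide-range arrays). Sdha went the other way in soleus, at 9.93, the lowest of the wide-range arrays, which otherwise lay between 10.20 and 10.47.

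In complex III, Uqcrc1 and Uqcrc2 are the core proteins, Uqcrfs1 is the Rieske iron-sulphur protein that takes electrons from ubiquinol, and Uqcrh, Uqcrb, Uqcrq and Uqcr11 are small subunits. Uqcrh, the hinge protein next to cytochrome c1, had the widest range, with 8.03 and 8.19 in masseter and digastric, 7.56, 7.55 and 6.87 in trapezius, supraspinatus and triceps, and 6.87, 7.68, 7.62 and 6.70 in rectus femoris, tibialis anterior, soleus and gastrocnemius. Both head values lay above the other 7, and the hindlimb difference was -0.89 (SE 0.31, adjusted p = 0.381), or -0.46 among the wide-range arrays. Uqcr11 had the largest statistic, at 6.95 and 7.28 in head, 6.95, 6.83 and 6.61 in shoulder and forelimb and 5.91, 6.61, 6.66 and 6.37 in hindlimb arrays (difference -0.73, SE 0.23, adjusted p = 0.381, and -0.48 among the wide-range arrays). Uqcrc2 differed by -0.75, Uqcrb by -0.71 and Uqcrfs1 by -0.65 (-0.41, -0.38 and -0.39 among the wide-range arrays), and none of them passed.

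Uqcrc1 was the exception of complex III. Its values were 10.65 and 10.80 in masseter and digastric, 10.74, 10.71 and 10.73 in trapezius, supraspinatus and triceps, and 10.57, 10.75, 10.95 and 10.58 in rectus femoris, tibialis anterior, soleus and gastrocnemius. The range over the 9 arrays was 0.38, while that of its core partner Uqcrc2 was 1.19. The hindlimb difference was -0.01 (SE 0.16, 95% interval -0.37 to 0.35), or 0.13 among the wide-range arrays, with a sign that changed with the normalization.

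In complex IV the nuclear genes add small subunits around a catalytic core that is written in mitochondrial DNA and was not analysed here. Cox7b, a subunit needed for assembly of the enzyme, had the widest range of all 45 genes, 2.38. It was at 8.42 in masseter and 9.13 in digastric, at 7.91, 8.36 and 7.36 in trapezius, supraspinatus and triceps, and at 6.95, 8.30, 8.37 and 6.75 in rectus femoris, tibialis anterior, soleus and gastrocnemius. Digastric exceeded the next array by 0.71, and the hindlimb difference of -1.18 (SE 0.48, adjusted p = 0.401) was -0.44 among the wide-range arrays. Cox7c had the largest statistic of this complex at a low level, with 4.08 and 3.94 in head, 3.46, 3.56 and 3.51 in shoulder and forelimb and 3.58, 3.70, 3.41 and 3.56 in hindlimb arrays. The head values were the highest (difference -0.45, SE 0.15, adjusted p = 0.381, and -0.46 among the wide-range arrays), at a level close to the array median. Cox7a2l, a relative of Cox7a2, differed by -0.52 (adjusted p = 0.399), or -0.29 among the wide-range arrays.

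Complex V is built of a catalytic head (Atp5a1, Atp5b), a central stalk (Atp5c1, Atp5d, Atp5e), a peripheral stalk (Atp5o, Atp5pb, Atp5h, Atp5j), the ring of c subunits (Atp5g1, Atp5g2, Atp5g3) and small membrane subunits such as Atp5l and Atp5k. Atp5o, whose protein joins the peripheral stalk to the head, was at 5.67 in masseter, 6.04 in digastric, 5.51 in trapezius, 5.48 in supraspinatus, 5.69 in triceps, 5.10 in rectus femoris, 5.13 in tibialis anterior, 5.50 in soleus and 5.16 in gastrocnemius. Each hindlimb value lay below both head values, soleus by the least, and the difference was -0.63 (SE 0.18, adjusted p = 0.364), or -0.54 among the wide-range arrays. Atp5l had the widest range, at 9.57 and 9.93 in head, 9.14, 9.20 and 8.79 in shoulder and forelimb and 8.19, 9.22, 9.43 and 8.02 in hindlimb arrays (difference -1.03, SE 0.37, adjusted p = 0.387, and -0.42 among the wide-range arrays).

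Of the catalytic head genes, Atp5b ranged from 11.60 to 12.20 over the 9 arrays and Atp5a1 from 10.52 to 11.50, with hindlimb differences of -0.33 and -0.50 (-0.17 and -0.22 among the wide-range arrays). Neither difference passed (limma, adjusted p = 0.463 for Atp5b and 0.417 for Atp5a1). In the peripheral stalk, Atp5pb was at 9.28 in soleus, below the other wide-range arrays, which lay between 9.59 and 10.17.

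The 3 c-subunit genes encode the same mature protein behind different import signals. Atp5g1 was at 5.27 and 5.45 in head, 5.37, 5.28 and 5.05 in shoulder and forelimb and 5.23, 4.98, 5.04 and 4.60 in hindlimb arrays. Atp5g2 was at 10.71 and 10.78, at 10.56, 10.62 and 10.35, and at 10.05, 10.63, 10.65 and 10.05 in the same order. Atp5g3 was at 9.12 and 9.26, at 8.75, 8.87 and 8.56, and at 7.99, 8.77, 9.23 and 8.16. Atp5g2 and Atp5g3 varied together (correlation 0.96 over 9 arrays and 0.80 over the 6 wide-range ones), and Atp5g1 followed Atp5g3 less closely (0.48 and 0.16). The log2 ratio of Atp5g1 to Atp5g3, set to a mean of 0, was lowest in soleus (-0.59) and highest in rectus femoris (0.84), with -0.25 to 0.23 in the other 7 arrays.

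Hindlimb against shoulder and forelimb muscles gave smaller values. In limma 0 of 45 genes were called higher (0.00451% of all genes) and 0 lower (0% of all genes), and at an unadjusted p under 0.05 the counts were also 0 and 0 (1.84% and 1.81% of all genes). The differences were negative for 42 of 45 genes with a median of -0.16, but among the wide-range arrays only 16 were negative and the median was 0.04. The median depended on single arrays. It was -0.05 without rectus femoris, -0.06 without gastrocnemius, -0.09 without supraspinatus and -0.13 without trapezius. It was -0.26 without tibialis anterior, -0.27 without triceps and -0.29 without soleus. For none of the 45 genes did the groups fall apart without overlap (2.32% of all genes did so as higher and 2.3% as lower). The most negative difference was that of Cox6a1 (-0.74, SE 0.36, adjusted p = 1), which was -0.25 without trapezius.

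Shoulder and forelimb against head muscles gave differences that were negative for 39 of 45 genes, with a median of -0.38, and of -0.29 among the wide-range arrays. This comparison uses the same head arrays as the first one. In limma 0 genes were called higher and 0 lower (0% of all genes in both directions). At an unadjusted p under 0.05 the counts were 0 higher and 4 lower (3.17% and 3.75% of all genes). Of the 680 other genes of level 8 or more, 32 were higher and 23 lower at that p. Every shoulder and forelimb array lay below both head arrays for 33 of 45 genes, against 14.7% of all genes, and above them for 2, against 15.2%. Among the 680 other genes of level 8 or more the counts were 192 below and 125 above. The 2 genes above were Cox7b2 and Cox8c, with mean levels of 1.16 and 1.80, below the array median. Cox7b (-0.90, SE 0.51, adjusted p = 0.754) and Uqcrh (-0.79, SE 0.33, adjusted p = 0.719) were the most negative.

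Endothelial markers were highest in digastric, soleus and masseter, as the subunit genes were. The mean of 7 such markers was 7.10 in masseter, 7.29 in digastric and 7.17 in soleus, and 6.06 to 6.75 in the other 6 arrays. All 7 were negative in hindlimb against head muscles, with a median of -0.60 (-0.24 among the wide-range arrays). In limma 0 passed as higher or lower (0.00902% and 0% of all genes did). At an unadjusted p under 0.05, 4 were lower (6.49% of all genes). For 2, every hindlimb array lay below both head arrays (9.78% of all genes). In shoulder and forelimb against head muscles 4 were lower at that p (3.75% of all genes). There, every array lay below both head arrays for all 7 (14.7% of all genes). In hindlimb against shoulder and forelimb muscles the markers and the subunit genes differed. There 6 of the 7 markers were positive, with a median of 0.12 (0.44 among the wide-range arrays). Of the 45 subunit genes 42 were negative, with a median of -0.16 (0.04 among the wide-range arrays). In limma 0 of the 7 markers passed there as higher or lower (0.00451% and 0% of all genes did). The part of the endothelial markers in the result was not tested.

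Turning to the tissue isoforms of complex IV, levels of different probe sets cannot be set against each other, so each pair is described by how its log2 ratio moved over the arrays, with the mean ratio set to 0. The promoters of 4 of these genes are shown, since the pairs differ in how closely they followed the other subunits. Each window runs from 250 bases before to 50 bases after the start in the RefSeq annotation of GRCm38.p6, 5′ to 3′ on the strand of the gene, with matches to the motifs named below in capitals. Those of the liver-type genes are Cox6a1 (chr5:115348909-115349208, minus strand) and Cox8a (chr19:7217567-7217866, minus strand), and those of the muscle-type genes Cox7a1 (chr7:30183921-30184220, plus strand) and Cox8b (chr7:140900397-140900696, minus strand).
Cox6a1: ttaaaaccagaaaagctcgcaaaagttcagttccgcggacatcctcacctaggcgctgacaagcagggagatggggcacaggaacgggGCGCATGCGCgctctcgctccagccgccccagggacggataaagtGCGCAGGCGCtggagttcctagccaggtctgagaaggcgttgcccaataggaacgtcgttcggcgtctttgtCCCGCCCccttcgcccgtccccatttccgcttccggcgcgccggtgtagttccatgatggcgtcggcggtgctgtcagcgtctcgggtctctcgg
Cox8a: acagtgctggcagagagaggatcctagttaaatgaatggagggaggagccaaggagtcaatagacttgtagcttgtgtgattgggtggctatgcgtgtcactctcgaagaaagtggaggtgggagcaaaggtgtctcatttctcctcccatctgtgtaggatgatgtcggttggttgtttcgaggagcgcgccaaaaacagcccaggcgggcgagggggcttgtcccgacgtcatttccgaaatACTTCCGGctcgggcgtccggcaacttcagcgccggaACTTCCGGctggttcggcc
Cox7a1: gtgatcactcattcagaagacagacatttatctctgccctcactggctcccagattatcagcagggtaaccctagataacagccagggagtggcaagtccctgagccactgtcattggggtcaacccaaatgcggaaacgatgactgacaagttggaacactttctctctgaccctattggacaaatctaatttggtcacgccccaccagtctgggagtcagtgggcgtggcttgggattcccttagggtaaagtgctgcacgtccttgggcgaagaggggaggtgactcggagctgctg
Cox8b: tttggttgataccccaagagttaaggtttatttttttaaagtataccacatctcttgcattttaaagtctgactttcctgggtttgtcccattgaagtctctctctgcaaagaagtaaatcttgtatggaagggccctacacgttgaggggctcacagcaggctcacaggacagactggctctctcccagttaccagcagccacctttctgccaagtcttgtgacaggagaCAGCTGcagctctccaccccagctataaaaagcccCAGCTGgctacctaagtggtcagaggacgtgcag

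The motifs searched on both strands were those of NRF1 by its usual palindromic consensus with a free central base, of ETS factors (CCGGAAGT), YY1 (AANATGGC), the oestrogen-related receptors ERR (TNAAGGTCA) and SP1 (GGGCGGG), the E-box CAGCTG, and MEF2 by its usual consensus. Cox6a1 held NRF1 matches that begin at bases -162 and -117 and an SP1 match at -45. Cox8a held ETS matches at -6 and 32, and Cox8b E-boxes at -19 and 17. Cox7a1 held no match, which says only that these letters are not in its window, and the matches shown do not overlap.

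Of the 45 genes 35 had a promoter in the table. NRF1 motifs were in 10 of the 35 (28.6%), among them Sdha, Sdhd, Uqcrc1 and Atp5g3, against 5.19% of all 27025 genes. YY1 motifs were in 5 (14.3%, against 6.96%), ETS motifs in 4 (11.4%, against 4.31%) and ERR motifs in 2, Sdhd and Atp5g3 (5.71%, against 1.43%). SP1 motifs were in 12 (34.3%, against 27.9%), E-boxes in 2 (5.71%, against 18.3%) and MEF2 motifs in 0 (0%, against 3.7%). A match is a description of the sequence and not of binding, and the motifs were chosen after expression values were known.

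Cox6a1 set trapezius apart. The gene was at 9.01 in masseter, 9.24 in digastric, 10.57 in trapezius, 9.15 in supraspinatus, 9.05 in triceps, 8.53 in rectus femoris, 8.71 in tibialis anterior, 9.52 in soleus and 8.63 in gastrocnemius. Trapezius exceeded soleus, the next array, by 1.04, and the other 8 arrays lay between 8.53 and 9.52. Taking each value's deviation from its gene's own mean, less the median of these deviations over the 45 genes in the same array, this value had the largest departure of all, 1.34.

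The muscle-type partner Cox6a2 did not follow. It was at 11.76 and 11.94 in masseter and digastric, at 11.34, 11.67 and 11.48 in trapezius, supraspinatus and triceps, and at 11.12, 11.38, 11.90 and 11.11 in rectus femoris, tibialis anterior, soleus and gastrocnemius, so that trapezius was the lowest wide-range array. The log2 ratio of Cox6a2 to Cox6a1 was -1.59 in trapezius and 0.01 to 0.39 in the other 8 arrays. In limma Cox6a1 differed by 0.46 (SE 0.43, adjusted p = 0.828) between shoulder and forelimb and head muscles, and by -0.03 (SE 0.31, adjusted p = 0.99) without trapezius.

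Cox8a, the widely expressed form of subunit 8, was likewise highest in trapezius. It was at 7.61 and 8.0 in head, 8.28, 7.97 and 7.73 in trapezius, supraspinatus and triceps and 7.66, 7.49, 8.10 and 7.42 in hindlimb arrays. Here trapezius lay above soleus by less than the spread between the other arrays. Cox8b, the muscle form, was at 10.85 and 11.11, at 10.67, 10.81 and 9.98, and at 9.90, 10.77, 11.24 and 9.62 in the same order. The log2 ratio of Cox8b to Cox8a was -0.36 in trapezius and between 0.10 and 0.54 in the other wide-range arrays, while the narrow-range arrays lay from -0.55 to -0.49.

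Of the 6 markers of brown adipocytes, which are rich in mitochondria, Ucp1, Cidea and Elovl3 stood out in trapezius and the others did not. Ucp1, the uncoupling protein that defines brown fat, was at 9.36 in trapezius, 5.10 in supraspinatus and 2.19 to 2.72 in the other 7 arrays. Cidea was at 9.22 in trapezius and 5.69 in supraspinatus, and Elovl3 at 4.28 in trapezius and at most 2.44 elsewhere. The mean of the 6 brown adipocyte genes, of which Cox7a1 is also a subunit gene, was 6.61 in trapezius, 4.99 in supraspinatus and 3.94 to 4.39 elsewhere. Dio2 and Zic1 were not above 3.42 in any array. Dio2 was at 3.20 in trapezius and 3.42 in soleus, and Zic1 at 3.15 in trapezius, rectus femoris and gastrocnemius alike. Cox7a1, at 10.46, was lower in trapezius than in any other wide-range array. White adipocyte genes (6 measured) had a mean of 7.24 in trapezius and of 4.65 to 5.59 elsewhere. In supraspinatus, where Ucp1 was second highest but 4.26 below trapezius, Cox6a1 was at 9.15, between the head arrays. The part of fat tissue in the Cox6a1 and Cox8a values was not tested.

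**Figure D4:**
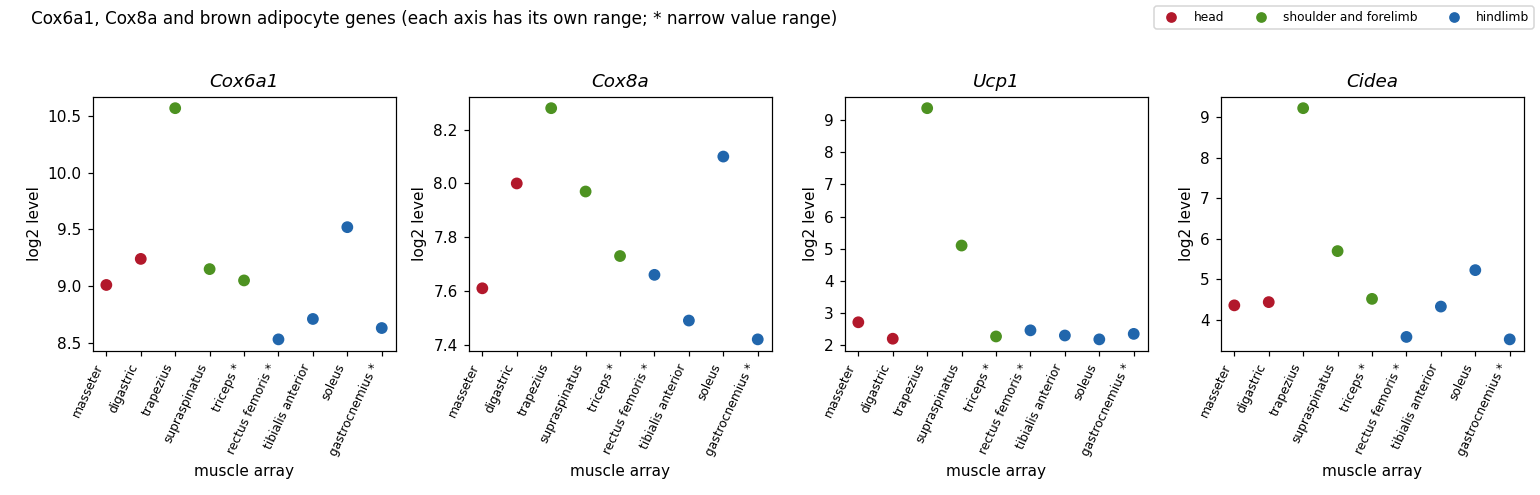
Log2 levels of Cox6a1 and Cox8a, the liver-type subunit genes, and of the brown adipocyte genes Ucp1 and Cidea, with 1 point per muscle array, coloured by region, each panel on its own axis. Trapezius is the highest point in all 4 panels, at 10.57, 8.28, 9.36 and 9.22.

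In the third pair both isoforms moved together. Cox7a1, the heart and muscle form, was at 10.87 and 11.13 in masseter and digastric, at 10.46, 10.82 and 10.14 in trapezius, supraspinatus and triceps, and at 9.81, 10.90, 10.95 and 9.61 in rectus femoris, tibialis anterior, soleus and gastrocnemius. Cox7a2, the widely expressed form, was at 8.81 and 9.02, at 8.60, 8.77 and 8.48, and at 7.99, 8.95, 8.80 and 8.24 in the same order. Their correlation was 0.95 over 9 arrays and 0.90 over the 6 wide-range arrays, against 0.27 and -0.28 for the Cox6a pair. The ratio lay between -0.03 and 0.26 in the wide-range arrays and was lowest in gastrocnemius (-0.53). Neither gene passed in any comparison.

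Cox4i1, the usual form of subunit 4, was at 9.92 and 10.17 in head, 9.98, 9.98 and 9.87 in shoulder and forelimb and 9.35, 9.79, 10.10 and 9.55 in hindlimb arrays. Its partner Cox4i2, known for its expression in lung and its response to low oxygen, was at 4.29 and 4.27, at 4.19, 4.11 and 4.46, and at 4.25, 3.87, 3.93 and 4.54. Cox4i2 stayed within 0.68 over the arrays, and the ratio to Cox4i1 was higher in the 3 narrow-range arrays (0.23 to 0.64) than in the 6 others (-0.52 to 0.01).

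**Figure D5:**
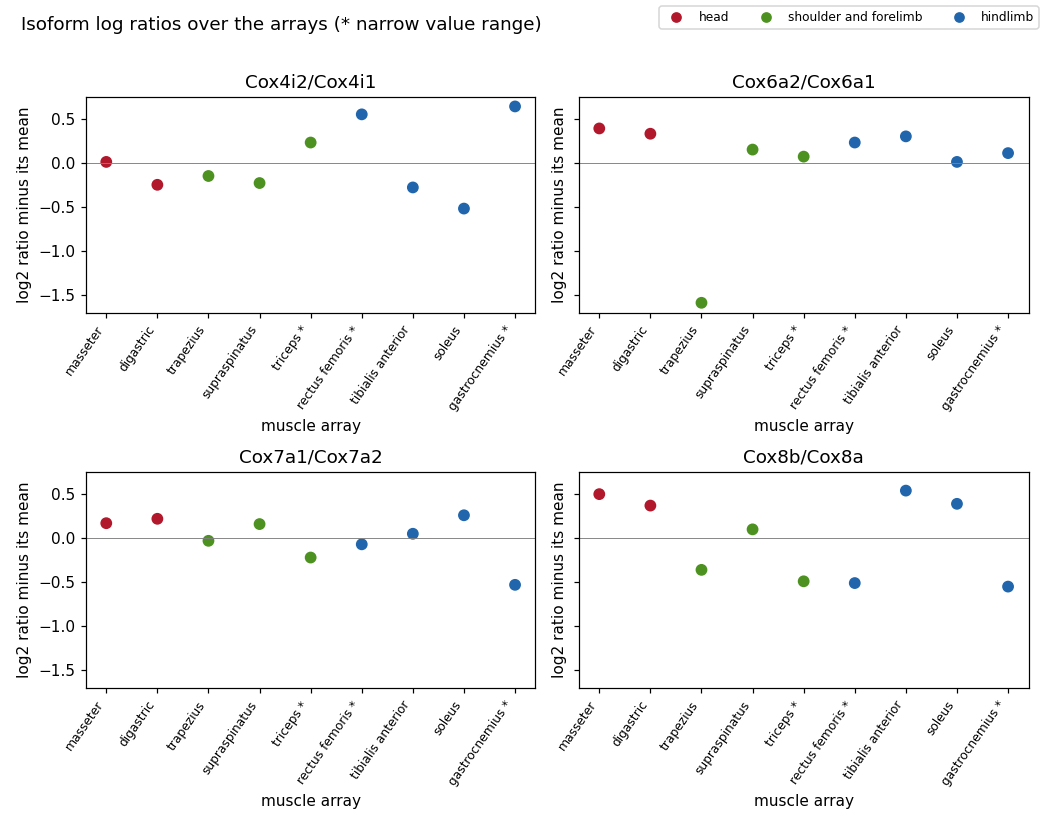
Log2 ratio of the paired isoforms in each muscle array, minus its mean over the 9 arrays, with 1 point per array coloured by region. In the Cox6a2/Cox6a1 panel trapezius lies at -1.59 and the other 8 arrays between 0.01 and 0.39; the Cox7a1/Cox7a2 ratio spans 0.79 in all.

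Isoforms known from testis were low. Cox7b2 was at 0.95 in masseter, 1.01 in digastric, 1.03 in trapezius, 1.06 in supraspinatus, 1.38 in triceps, 1.09 in rectus femoris, 1.04 in tibialis anterior, 0.99 in soleus and 1.87 in gastrocnemius. Cox8c was at 1.70 and 1.58 in head, 1.75, 2.24 and 1.75 in shoulder and forelimb and 1.83, 1.72, 2.08 and 1.55 in hindlimb arrays. Both lay below the array median throughout, and they are the 2 of the 45 genes with a mean below it. Cox6b2 was at 2.87 and 3.82, at 3.88, 3.77 and 3.77, and at 4.19, 3.66, 3.36 and 4.0, around the array median, while its widely expressed partner Cox6b1 ran from 8.08 to 9.31.

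Other genes of the same pathway followed the subunits. Cytochrome c, the carrier between complexes III and IV, was 10.92 in masseter, 10.86 in digastric and 9.60 to 10.69 elsewhere for Cycs, and Cyc1, the cytochrome c1 of complex III, differed by -0.46 and Cycs by -0.74 (the median of the pair was -0.20 among the wide-range arrays) between hindlimb and head muscles, where the lower adjusted p of these genes was 0.428 (limma). Of 33 measured complex I subunit genes all 33 were negative in hindlimb against head muscles with a median of -0.58 (-0.19 among the wide-range arrays), and of 12 citrate cycle enzymes all 12, with a median of -0.52 (-0.22). Assembly factors of complex IV, which insert copper and haem or guide its subunits, were negative for 20 of 21 measured genes (median -0.46, and -0.28 among the wide-range arrays). Those of complex III were negative for 5 of 6 (median -0.33, and -0.26 among the wide-range arrays), those of complex II for 3 of 4 (-0.44 and -0.08) and those of complex V for 4 of 5 (-0.46 and -0.21). In each of these lists 0 genes passed in limma in either direction in this comparison. At an unadjusted p under 0.05, where 6.49% of all genes were lower and 5.45% higher, 11 complex I genes and 6 citrate cycle genes were lower. The counts of lower assembly factors were 0 for complex II, 2 for complex III, 7 for complex IV and 1 for complex V, cytochrome c and c1 had 0, and no list had a gene that was higher. Among the assembly factors, singled out after its values were seen, Lyrm7, a chaperone of the Rieske protein, was at 4.68 and 5.19 in the head arrays and at 3.15 to 4.18 in the hindlimb arrays.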

How the data were processed

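The authors deposited log2 expression values per probe set, with GCRMA (background correction by probe sequence, normalization between arrays) named without a version in the submitters' processing notes. The table held 41345 probe sets, 23521 of them with 1 gene, for 22180 genes; where a gene had several, as for 6 of the genes described, the one with the highest mean was used. No filter on low values was applied and no detection calls were used. Group means were fitted over the 9 arrays together with limma 3.58.1 under R 4.3.3 (lmFit, eBayes, 6 residual degrees of freedom, Benjamini-Hochberg over all genes, threshold 0.05), tested on simulated data. P-values rest on the spread between the arrays of a group, in which muscle, animal and array cannot be told apart. The number of arrays limits the precision. Promoter sequences are those of RefSeq for GRCm38.p6. Other coordinates are left out, the array's build being not given in the sources used here. Other settings tried were cyclic loess or quantile normalization, centring on array medians, leaving out dim genes, averaging probe sets, robust eBayes with a trend, fitting the compared groups alone, the value range as a term, only wide-range arrays, and each array left out. All values of the isoform pairs, of the testis isoforms, and per complex of the gene with the widest range and with the largest moderated statistic are given; other members by range or where they depart from their complex. Uqcrc1 was singled out after its values were seen. The members, lists and alternatives were chosen with earlier results of these data known. Of 24 complex IV assembly factors 21 were measured, and of 13 citrate cycle enzymes 12. Cardiac markers (4 genes) had a mean of 3.55 to 3.96, smooth muscle markers (4) of 5.56 to 6.05 and fast fibre genes (7) of 10.08 in soleus and 11.31 to 12.05 elsewhere. Erythroid markers were not measured by a single-gene probe set.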

Additional observations from a re-analysis of the deposited data

Results flagged for a closer look

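Among the 4 hindlimb arrays the highest and lowest value of each of the 45 genes and of 5 isoform log ratios was set against the others by Dixon's criterion, which chance meets for about 1 in 20. Of these 50 quantities 2 met it. Atp5o was at 5.50 in soleus and at 5.10 to 5.16 in the other hindlimb arrays. Cox7b2 was at 1.87 in gastrocnemius and at 0.99 to 1.09 in the others, all below the array median.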

How the results depend on the processing

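No gene of complexes II to V passed in any of the 3 comparisons under any of the 18 alternative settings run. The lowest adjusted p (limma) was 0.146 for hindlimb against head, 0.311 for shoulder and forelimb against head and 0.791 for hindlimb against shoulder and forelimb muscles. The median difference of the 45 genes, -0.50 for hindlimb against head, ran from -0.65 to -0.42 with 1 array left out and from -0.54 to -0.21 under the 9 other settings. For shoulder and forelimb against head it ran from -0.44 to -0.27 and from -0.39 to -0.20. For hindlimb against shoulder and forelimb it ran from -0.29 to -0.05 and from -0.19 to 0.04, the last with the wide-range arrays alone. Of 20 single genes followed in hindlimb against head muscles, 4 changed sign, each at a small size. Uqcrc1 was at 0.06 with quantile normalization, 0.16 with cyclic loess, 0.07 with the value range as a term and 0.13 with the wide-range arrays, and from -0.09 to 0.06 with 1 array left out. Cox8a was at 0.04, 0.07 and 0.02 under the first 3 of these and from -0.33 to 0.06 with 1 array left out. Cox6a1 was at 0.05 with the value range as a term, and Cox8b at 0.02 with the wide-range arrays. Among the wide-range arrays the hindlimb difference of the log2 ratio was -0.28 in place of 0.22 for Cox4i2 to Cox4i1 and 0.03 in place of -0.46 for Cox8b to Cox8a. The cause of these changes was not tested. No paired analysis was possible because the labels do not say which animals gave RNA to which array. Signal near the array median limits what can be said of Cox4i2, Cox6b2, Cox7b2, Cox7c, Cox8c and Atp5j2.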

Other observations

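Probe sets that the array table assigns to a subunit gene and another gene together stood outside the rule. That of Uqcr10, a small subunit of complex III, and Gm6293 was at 7.14 in masseter, 7.18 in digastric, 7.06 in trapezius, 7.02 in supraspinatus, 6.67 in triceps, 6.49 in rectus femoris, 6.78 in tibialis anterior, 7.03 in soleus and 6.24 in gastrocnemius. The brighter of those of Cox6c, a subunit of complex IV, and Gm6265 was at 10.66 and 11.01 in the head arrays, 10.19, 10.38 and 9.43 in trapezius, supraspinatus and triceps, and 9.16, 10.44, 10.62 and 9.03 in rectus femoris, tibialis anterior, soleus and gastrocnemius. Both were highest in digastric and lowest in gastrocnemius. The other 2 such probe sets were dimmer and differed from this. That of Uqcrb and Gm10767 was lowest in digastric (2.99) and highest in masseter (4.44), with 3.74 to 4.23 in the other arrays. The dimmer one of Cox6c and Gm6265 was at 5.82 in masseter, 4.86 in digastric and 4.29 in gastrocnemius, its lowest value.

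Of the genes described, 6 were each measured by several probe sets. For 5 of these genes the probe sets varied together over the arrays, with correlations of 0.82 to 0.98. The exception was Cox5b, whose brighter probe set (mean 9.78) and dimmer one (mean 4.54) had a correlation of -0.47 and hindlimb differences from head muscles of -0.48 and -0.03.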
